A study of Mus musculus with 18 samples.

Results

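Total RNA of whole mouse kidney was read on Affymetrix arrays, and the comparison described here is that of 3 control kidneys at 1 month of age with 6 control kidneys at 7 days, which together were 9 of the 18 arrays of the series. The members were the arrays whose titles name an age and a control, and the features were the 10833 of 12488 probe sets that carry 1 gene symbol, which stand for 8251 genes when each gene is read by its brightest probe set. The series text gives the controls as Aprt+/+ and calls the younger group newly born and the older group adult; all mice were of the strain labelled C57. The 7-day controls were 3 females and 3 males, and the 1-month controls were 1 female (replicate 1) and 2 males (replicates 2 and 3). The other 9 arrays were Aprt KO kidneys, 6 at 7 days and 3 at 1 month, each a littermate of 1 control; Aprt encodes adenine phosphoribosyltransferase, the purine salvage enzyme whose loss leads to stones of 2,8-dihydroxyadenine. No litter held both ages, so age cannot be told apart from any other difference between the 7-day and the 1-month groups. The limma p-values measure the spread between mice within groups, taken over all 18 arrays, the Aprt KO arrays among them.

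The mouse kidney is immature at birth. Nephrons, the filtering and reabsorbing units, are still being formed from a progenitor population in the outer cortex for some days after birth; after that the tubules lengthen, their cells acquire transporters, mitochondria and peroxisomes, and cell division in the organ declines. The proximal tubule reclaims most of the filtered solute and burns fatty acids to do so, the loop of Henle and the collecting duct set urine concentration, and the stroma and vessels between the tubules take up a smaller share of the organ as tubules fill it. The comparison of the 2 control groups asks which transcripts differed between the immature kidney and the kidney after weaning age, within the limits of 9 arrays.

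Each array held whole-tissue RNA, so fewer cells of a type and less RNA per cell cannot be told apart. Median signal ran from 186.9 to 211.3 in the 7-day controls and from 160.1 to 178.7 in the 1-month controls (exact two-sided permutation p = 0.0119, the smallest that 3 against 6 allows), although the deposited arrays share a trimmed mean near 500. The array of 7-day control 4 had a highest signal of 10767 where the other 7-day controls reached 25718 to 34951. On the brightest Aprt probe set, the arrays labelled 7-day control 1 and 2 read 66.3 and 51.3, on the side of the 7-day Aprt KO arrays (median 56.0), while the other 4 read 138 to 148 and the 1-month controls 104 to 110. Without these 2 arrays, 710 genes were called higher and 1403 lower, where the counts over all arrays below are 814 and 1554. Adrenal markers stood high in 7-day controls 1, 2 and 6, with Cyp11a1 at 442 to 534 against 9.15 to 17.5 in the other 3. The summed level of the 15 adrenal genes ran from 6795 to 15171 at 7 days and from 9609 to 11928 at 1 month. By limma 1 of the 15 was called higher and 1 lower at 1 month. Only 2 had a log2 difference above 0, and the median was -0.86 against -0.09 over all genes. None of the 22 striated muscle markers was called by limma (1 lower and none higher at an unadjusted p under 0.05). The kidney itself was marked at both ages, with Umod at 2290 or above and Slc34a1 at 6147 or above on all 9 arrays.

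At 1 month 2368 of 8251 genes (28.7%) differed from 7 days at an adjusted p under 0.05, of which 814 were higher (9.87%) and 1554 lower (18.8%). By probe set the count was 2721 of 10833 (25.1%), with 920 higher (8.49%) and 1801 lower (16.6%). Differences over 2-fold on the log2 scale numbered 263 higher (3.19%) and 555 lower (6.73%), and by probe set 302 (2.79%) and 643 (5.94%). Over all 8251 genes the difference was taken as log2(signal + 29) at 1 month minus that at 7 days, midway between the sexes, and the median was -0.09, with 5% of genes under -1.19 and 5% above 0.78. The split between the directions depended on scaling: with each array centred on its median the counts were 1447 higher and 931 lower and the median of all genes was 0.13, and with quantile normalization they were 963 and 1193 with a median of 0.02. The share of higher genes among those called was thus 34.4% as deposited, 60.8% after centring and 44.7% after quantile normalization. Over all genes, 704 (8.53%) had 1-month arrays wholly above the 7-day arrays and 1386 (16.8%) wholly below, and 1859 of the 2368 called genes were among them. Gene groups are read against these shares. Where a group below had no member called in 1 direction by limma, none passed an unadjusted p under 0.05 in that direction either, except 1 lower among organic ion carriers, 1 lower in gluconeogenesis, 1 lower in the respiratory chain, 1 higher among interferon genes and 2 higher among immediate early genes. Without 1-month control 2 or 3, both male, the calls were 722 higher and 1342 lower or 711 and 1385. Without 1-month control 1, the female, they fell to 437 higher and 870 lower. Control 1 is the only female control of that age, so without it the sex term of 1 month is estimated from Aprt KO arrays alone. A call lost without control 1 is therefore not by itself a smaller difference. Of the called genes named below, 36 no longer passed without that array, namely Ace, Acot1, Aqp2, Bcat2, Bmp4, Car2, Ccnd3, Cebpa, Csf1r, Cubn, Cyp1b1, Dlk1, Dpp4, Eng, Gatm, Gjb1, Hk1, Hnf4a, Igfbp3, Lama5, Lamb1, Mme, Mrc1, P4ha2, Pdgfrb, Pdzk1, Ppara, Slc12a1, Slc12a3, Slc2a2, Slc2a5, Slc6a6, Slc7a7, Tef, Tfcp2l1 and Timp1.

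**Figure D1:**
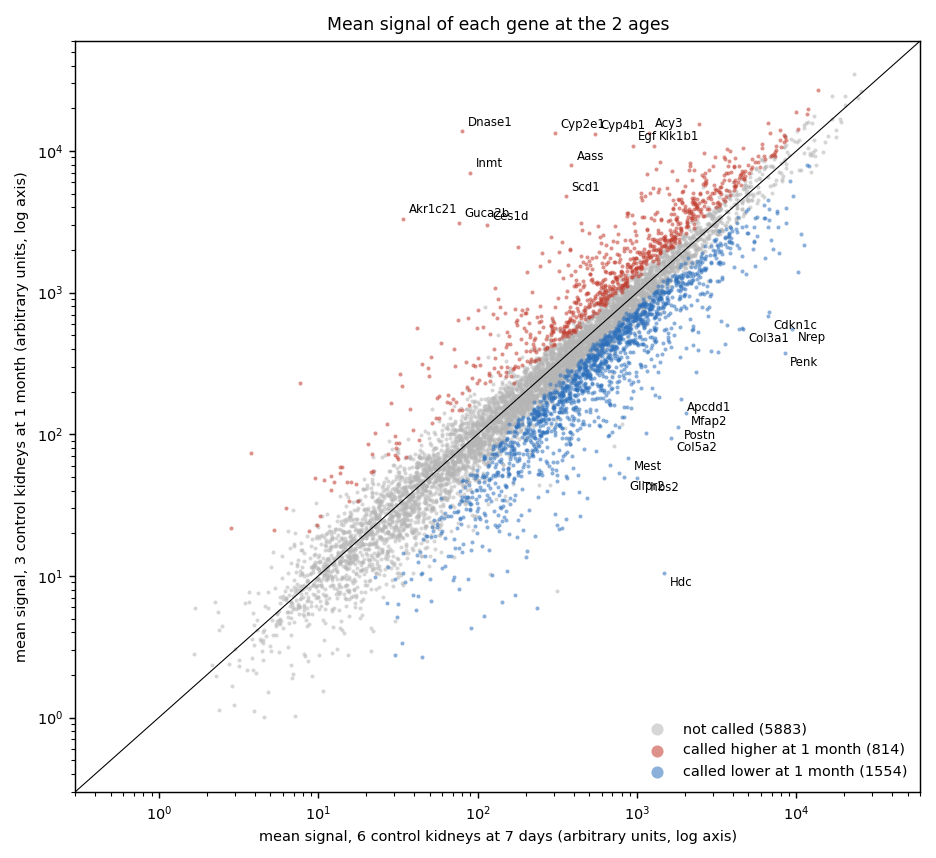
Each point is 1 of 8251 genes at its mean signal in the 6 control kidneys of 7 days (horizontal, arbitrary units, log axis) and in the 3 of 1 month (vertical, same units, log axis), with the line of equal signal drawn. Red points are the 814 genes called higher and blue points the 1554 called lower at 1 month; the 12 largest rises and 12 largest falls are named, and Dnase1 and Hdc lie farthest from the line among them.

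The 12 largest rises were led by Dnase1 and included hormone and growth factor precursors and metabolic enzymes. Signals at 7 days are given here as the lowest, the median and the highest of the 6 arrays, and signals at 1 month as those of the female and then of the 2 males. Dnase1, a secreted endonuclease that degrades extracellular DNA, read 45.3, 75.8 and 125 at 7 days and 14925, 14907 and 11371 at 1 month, a difference of 7.01 ± 0.30 on the log2 scale (SE; limma adjusted p = 2.05e-11). Its 3 older arrays all lay far above every younger one, and a second Dnase1 probe set with means of 10.3 and 10.1 was dim at both ages and not called. Guca2b, which encodes the natriuretic peptide uroguanylin, read 23.3, 73.5 and 145 at 7 days and 1936, 3089.6 and 4324 at 1 month, a rise of 4.80 ± 0.27 (adjusted p = 7.62e-10) with no overlap. Egf, the growth factor precursor made by the loop of Henle and the distal tubule, read 568, 1026 and 1251 at 7 days and 13379.7, 8215 and 10995 at 1 month, a rise of 3.58 ± 0.26 (adjusted p = 1.83e-08). A second Egf probe set with means of 21.6 and 31.5 was dim at both ages and not called. Aass, the first enzyme of lysine breakdown, read 158, 429 and 556 at 7 days and 6532, 7592 and 9632 at 1 month, a rise of 4.30 ± 0.38, again with every older array above every younger one. Scd1, a fatty acid desaturase, read 283, 305 and 504 at 7 days and 4887, 5826 and 3614 at 1 month and rose by 3.65 ± 0.45; a second probe set of Scd1 also rose (by 4.50) and the remaining, dim one was not called. Acy3, an enzyme that deacetylates mercapturic acids and aromatic amino acids, read 858, 1282 and 1403 at 7 days and 7760.4, 17093 and 15440.5 at 1 month, a rise of 3.26 ± 0.14 (adjusted p = 2.49e-11).

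In 4 more of the 12 largest rises the postnatal change also differed between the sexes by limma, with the 1-month female below the 2 males. The female read below both males in Aass, Acy3, Guca2b and Ces1d too, but their changes were not called different between the sexes. Cyp2e1, the cytochrome P450 that oxidises ethanol and other small molecules, read 211, 326 and 389 at 7 days and 6004, 15757 and 18242 at 1 month, a difference of 4.90 ± 0.20. Inmt, which methylates indole amines, read 58.1, 88.5 and 119.7 at 7 days and 1283, 11291 and 8517 at 1 month. Akr1c21, a reductase of hydroxysteroids, read 11.7, 30.5 and 62.2 at 7 days and 401, 4338 and 5237 at 1 month. For both, the female of 1 month lay above every 7-day array and far below both males of that age. Cyp4b1, another P450, read 432, 550.5 and 652 at 7 days and 5144, 16694 and 17379 at 1 month, a difference of 4.03 ± 0.13, again with the female between the younger kidneys and the older males. Cyp4b1 and the remaining pair of the 12, Ces1d (4.51 ± 0.50) and Klk1b1 (3.15 ± 0.30), are read by probe sets whose suffix marks probes shared with related sequences, so paralogs may add to the signals.

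The largest fall was in Hdc, histidine decarboxylase, which makes histamine: it read 662, 935 and 2864 at 7 days and 7.59, 11.7 and 12.0 at 1 month, a difference of -5.00 ± 0.45 (adjusted p = 2.08e-07). The 3 older arrays were dim and the younger ones spread over more than 4-fold among themselves. The size of the fall depends on the pseudocount, being -6.78 with a pseudocount of 1 and -3.46 with 112 in place of 29. Penk, the precursor of the enkephalin peptides, read 7668, 8599 and 8821 at 7 days and 362, 462 and 301 at 1 month, a difference of -4.41 ± 0.17 (adjusted p = 6.11e-12), on a probe set of the shared kind; a second probe set fell by 2.30 and the remaining one was dim. Nrep, a small protein first described in regenerating neurons, read 7441, 8709.7 and 12186 at 7 days and 520.0, 576 and 571 at 1 month, a difference of -3.98 ± 0.18 with no overlap. Apcdd1, a membrane inhibitor of Wnt signalling, read 1758, 1893 and 2067 at 7 days and 207, 179 and 149 at 1 month, a difference of -3.21 ± 0.13 (adjusted p = 1.24e-11). Glipr2 read 626, 763 and 1202 at 7 days and 46.1, 63.3 and 39.4 at 1 month. The other 7 of the 12 largest falls were the matrix genes Postn, Thbs2, Col5a2, Mfap2 and Col3a1 and the imprinted growth genes Mest and Cdkn1c, described with their groups below; in all 12 the older arrays lay wholly below the younger ones.

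**Figure D2:**
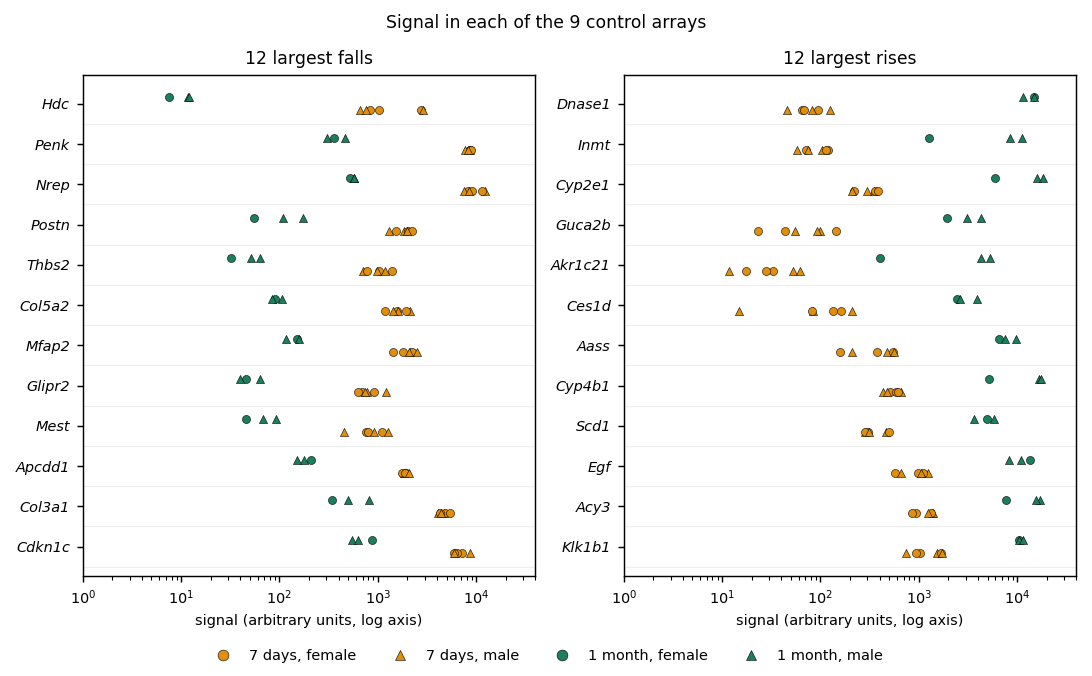
Signal (arbitrary units, log axis) of the 12 largest falls and the 12 largest rises in each of the 9 control arrays, with circles for females, triangles for males, orange for 7 days and green for 1 month. The ages do not overlap for any of the 24 genes, which the rule for naming them required. Rises with the 1-month circle left of both 1-month triangles include Inmt, Akr1c21, Cyp2e1, Cyp4b1, Aass, Acy3, Guca2b and Ces1d.

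The age difference in the Aprt KO kidneys, which share no array with the controls, was read from the same fit. Those mice were littermates of the controls, and the fit gives both genotypes the same sex terms and spread. The 2 age differences are thus not independent. Of the 814 genes called higher in controls, 799 (98.2%) also had a difference above 0 in the Aprt KO arrays, with a median of 0.75 there against 0.76 in controls. Of the 1554 called lower, 1542 (99.2%) were also below 0 there, with medians of -0.73 and -0.83. Among the 5883 genes not called the 2 genotypes had the same sign for 73.1%. Dnase1 differed by 6.81 in the Aprt KO kidneys, Guca2b by 3.37, Egf by 4.72, Penk by -4.00, Nrep by -3.63 and Hdc by -4.61.

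Genes of nephron formation fell in 20 of the 38 measured and rose in 1, with a median of -0.66 against -0.09 over all genes. Nephrons arise when cap mesenchyme cells, told apart by factors such as Six2 and Cited1, condense around ureteric bud tips that carry the receptor Ret, and pass through a Wnt4-dependent change into epithelium. Hoxd11, a patterning factor of the metanephric mesenchyme, read 568, 742 and 1147 at 7 days and 98.1, 43.2 and 18.7 at 1 month, a difference of -3.18 ± 0.26 (adjusted p = 7.26e-08). Wnt4 read 220.5, 284 and 533 at 7 days and 17.0, 25.9 and 25.6 at 1 month, a difference of -2.72 ± 0.22 (adjusted p = 4.05e-08), and the 3 older arrays were dim. Gpc3, a cell-surface proteoglycan that restrains growth, read 3915, 4263 and 4832 at 7 days and 765, 455 and 451 at 1 month, a difference of -2.83 ± 0.10 (adjusted p = 2.23e-12), the smallest p of the group. Ncam1, an adhesion molecule of induced mesenchyme, differed by -2.59 ± 0.14, and the transcription factors Sox11 and Sox4 by -2.03 ± 0.20 and -1.62 ± 0.28. The stromal factor Foxd1 and the integrin subunit Itga8 differed by -1.31 ± 0.26 and -1.26 ± 0.23, both with older arrays wholly below the younger ones.

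Several genes known from progenitor cells and the bud tip were not called, Cited1 and Gdnf of which were named after their values were seen. Six2, which keeps nephron progenitors undifferentiated, read 61.4, 92.9 and 203 at 7 days and 85.5, 111 and 54.9 at 1 month, and its ranges overlapped (-0.27 ± 0.26, adjusted p = 0.536). Cited1, which marks the same cells, read 276, 293 and 362 at 7 days and 249, 106 and 206 at 1 month (-0.55 ± 0.30, adjusted p = 0.213), with its older arrays wholly below the younger ones. Gdnf, the ligand those cells send to the bud, read 121, 155 and 186 at 7 days and 102, 153 and 100.1 at 1 month (-0.35 ± 0.19, adjusted p = 0.219). Ret, the receptor for Gdnf, was listed between 3.29 and 9.26 on all 9 arrays, which is dim at both ages. Pax2 and Lhx1, factors of early epithelium, had differences of 0.30 ± 0.32 and 0.37 ± 0.30 with adjusted p of 0.572 and 0.433. A p that misses the threshold does not show that these levels were equal. Whether nephrons were still forming at 7 days was not tested. Bmp4, a ligand that stroma and smooth muscle make around the ureter, was the 1 member called higher, at 0.36 ± 0.09, on a probe set of the shared kind.

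Of 47 cell cycle genes 40 fell and none rose, with a median of -1.32. Cks1b, a subunit of cyclin-dependent kinase complexes, read 1276, 1379 and 1508 at 7 days and 147, 175 and 224 at 1 month, a difference of -2.81 ± 0.12 (adjusted p = 1.24e-11). Mki67, the proliferation marker, read 345, 438 and 489 at 7 days and 26.8, 103 and 193 at 1 month. Top2a, the topoisomerase that untangles replicated chromosomes, read 271, 320.5 and 346 at 7 days and 6.63, 47.8 and 115 at 1 month. In both the female read lowest of the 3 older kidneys, and all 3 lay below every younger one. Cdk1, the mitotic kinase, read 872, 1009.7 and 1080.2 at 7 days and 226, 225 and 323 at 1 month (-1.87 ± 0.11, adjusted p = 1.63e-09), and its partner Ccnb2 read 1979.9, 2514 and 3959 at 7 days and 558, 631 and 874 at 1 month (-1.99 ± 0.20). The spindle motors and kinases Kif11, Aurkb and Plk4 differed by -1.96 ± 0.19, -1.91 ± 0.27 and -1.75 ± 0.19.

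Among cyclins of the D family, Ccnd2 read 171, 229 and 333 at 7 days and 42.4, 77.7 and 37.9 at 1 month and fell (-1.85 ± 0.29, adjusted p = 0.000107), Ccnd3 fell less (-0.64 ± 0.17) with overlapping arrays, and Ccnd1 read 1824, 2006 and 2125 at 7 days and 2064, 2303 and 2203 at 1 month and was not called (0.10 ± 0.11). The differences between these 3 were not tested. Of 34 DNA replication genes 24 were lower and none was higher, with a median of -0.89. Rrm2, the regulated subunit of ribonucleotide reductase, read 750.3, 924 and 1045 at 7 days and 152, 167 and 359 at 1 month, a difference of -2.05 ± 0.19. Uhrf1, which guides maintenance methylation of new DNA, differed by -1.98 ± 0.19. Mcm5, Mcm4, Mcm3 and Mcm2 of the replicative helicase differed by -1.70 ± 0.16, -1.37 ± 0.14, -1.32 ± 0.14 and -0.96 ± 0.12, and Mcm6 was dim at both ages and not called. Of 46 chromatin and RNA-binding genes 27 (17 after median centring) were lower and none higher, among them Ezh2, the histone H3 lysine 27 methyltransferase (-1.34 ± 0.15), and the oncofetal RNA-binding protein Igf2bp1 (-1.41 ± 0.19).

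The promoters of 3 cell cycle genes are shown because their members fell together and because genes of mitosis are known to share CCAAT boxes and the cell cycle homology element. Each line gives the 250 bases before the annotated start of transcription, 5' to 3' on the strand of the gene, from RefSeq for GRCm38.p6, with CCAAT (or ATTGG, its reverse complement) and TTTGAA (or TTCAAA) in capitals. Ccnb2 lies at chr9:70421555-70421804 on the minus strand, Cdk1 at chr10:69352913-69353162 on the minus strand and Top2a at chr11:99024190-99024439 on the minus strand.
Ccnb2: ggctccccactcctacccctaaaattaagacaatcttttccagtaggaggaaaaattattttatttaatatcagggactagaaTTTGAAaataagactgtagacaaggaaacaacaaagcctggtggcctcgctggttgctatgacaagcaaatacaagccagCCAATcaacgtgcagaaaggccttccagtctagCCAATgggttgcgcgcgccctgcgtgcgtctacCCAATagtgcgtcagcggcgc
Cdk1: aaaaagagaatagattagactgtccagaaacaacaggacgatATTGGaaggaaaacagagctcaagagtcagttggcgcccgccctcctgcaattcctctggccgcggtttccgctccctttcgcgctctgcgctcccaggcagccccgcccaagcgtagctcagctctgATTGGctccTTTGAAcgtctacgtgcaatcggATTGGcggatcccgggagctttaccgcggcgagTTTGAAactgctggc
Top2a: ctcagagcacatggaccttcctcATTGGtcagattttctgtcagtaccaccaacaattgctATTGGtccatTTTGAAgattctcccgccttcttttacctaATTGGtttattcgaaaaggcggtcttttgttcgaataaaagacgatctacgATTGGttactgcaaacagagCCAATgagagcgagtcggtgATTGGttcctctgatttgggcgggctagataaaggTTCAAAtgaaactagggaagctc
The Ccnb2 window holds CCAAT at -87, -54 and -21 from the start and TTTGAA at -167, the Cdk1 window 3 and 2 such matches, and the Top2a window 6 and 2. Of 81 measured cell cycle and replication genes, 67 had at least 1 promoter in the table, with 80 windows of 300 bases in all (250 before to 50 after each start). CCAAT on either strand was in 53 of 80 windows (66.2%), against 37.4% of all 32851 windows of the table, and TTTGAA in 29 (36.2%) against 17.9%. Both were in 25 windows (31.2%) against 6.95%. These are counts of letters, not of bound sites, they cover members of the list whether or not they fell, and windows of 1 gene overlap.

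Inhibitors of the cycle did not form 1 group: of 20 measured, 5 rose (3 without 1-month control 1) and 6 fell. After median centring 6 rose and 3 fell, and in male arrays only 3 rose and 3 fell. Cdkn1c, the imprinted kinase inhibitor p57, read 5891, 6172 and 8585 at 7 days and 878, 542 and 627 at 1 month, a difference of -3.18 ± 0.14 (adjusted p = 2.49e-11). The older arrays lay far below the younger ones, and the fall in the Aprt KO kidneys was -1.88, a difference between genotypes of -1.30 (adjusted p = 0.00463). Cdkn1a, the p53 target p21, read 589.8, 627 and 736 at 7 days and 191, 200.2 and 177 at 1 month and differed by -1.61 ± 0.15. Gadd45g, a stress-inducible growth regulator, rose by 1.41 ± 0.20, and Ccng1, a cyclin induced by p53, by 0.89 ± 0.19.

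Imprinted genes, which are expressed from 1 parental allele and many of which act on growth before weaning, fell in 11 of 19 and rose in 2 (11 and 4 after median centring), with a median of -1.29. Igf2, the fetal growth factor, read 1683, 2815 and 4120.2 at 7 days and 519.7, 349.8 and 300.5 at 1 month, a difference of -2.74 ± 0.21 (adjusted p = 3.54e-08) on a probe set of the shared kind. Mest read 457, 845 and 1271 at 7 days and 45.7, 67.9 and 91.9 at 1 month, a difference of -3.25 ± 0.26. Peg3, a zinc finger protein, read 1622, 2409 and 2746 at 7 days and 506, 338 and 430.4 at 1 month, a difference of -2.30 ± 0.17. Ndn, Grb10, Nnat, Plagl1 and Dlk1 also fell, by differences of -2.30, -2.36, -2.77, -1.29 and -0.90. The noncoding Meg3, which lies in the same imprinted domain as Dlk1 but is expressed from the other allele, differed by -1.65 ± 0.33. Igf2r, the receptor that clears Igf2, read 706, 764 and 786 at 7 days and 762, 909 and 943 at 1 month and was not called (0.15 ± 0.08). The 2 that rose were Phlda2 (0.91 ± 0.14), which limits placental growth, and Gatm (0.64 ± 0.15), the first enzyme of creatine synthesis. H19 has no probe set with 1 symbol on this array.

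Within the insulin-like growth factor axis, Igfbp2 and Igfbp3, which bind the factors, differed by -2.42 ± 0.18 and -0.82 ± 0.21. Igfbp1 read 83.1, 139 and 167 at 7 days and 935, 328 and 708 at 1 month and rose by 2.11 ± 0.31. Ghr, the growth hormone receptor, read 383, 453 and 487 at 7 days and 1171, 3301 and 4862 at 1 month, a rise of 2.27 ± 0.15 (adjusted p = 5.51e-09) on a probe set of the shared kind. The brightest Igf1 probe set read 524, 1034 and 1268 at 7 days and 1172, 1986 and 757 at 1 month and was not called (0.37 ± 0.31), and a second one fell by 1.06 (adjusted p = 0.000592), so the array gives no single answer for Igf1.

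The list of interstitial matrix genes had the lowest median of the lists. Of 42 measured genes for fibrillar collagens and their matrix partners 35 were lower and 1 was higher, with a median of -1.70. Postn, a matricellular protein of growing and healing tissue, read 1305, 1922 and 2212 at 7 days and 55, 109 and 176 at 1 month, a difference of -3.92 ± 0.16 (adjusted p = 1.24e-11). Col1a1 and Col3a1, the main fibrillar collagens of soft tissue, read 5127, 6309.9 and 9363 at 7 days and 605, 756 and 835 at 1 month and 4109, 4571 and 5434 at 7 days and 340.4, 503 and 816 at 1 month. Both fell by more than 3 on the log2 scale (-3.18 ± 0.20 and -3.21 ± 0.14), and 2 further Col3a1 probe sets fell by 3.62 and 2.04. Thbs2, Col5a2 and Mfap2 read 32.5, 63.0 and 50.9, 89.9, 84.6 and 107 and 149.7, 159 and 116 at 1 month, with differences of -3.76 ± 0.19, -3.73 ± 0.16 and -3.58 ± 0.15. Eln, the elastic fibre protein, differed by -2.48 ± 0.16 and its crosslinking enzyme Lox by -2.06 ± 0.17. Smaller falls were measured for the proteoglycans Dcn (-1.32 ± 0.14) and Bgn (-0.95 ± 0.18). The collagen prolyl hydroxylase P4ha2 was the 1 member called higher (0.43 ± 0.15), with overlapping arrays. In metalloproteinases and their inhibitors 8 of 20 fell (5 without 1-month control 1) and 1 rose: Mmp14, the membrane collagenase, differed by -1.53 ± 0.12, Timp1 by -1.56 ± 0.26, and Timp3, the inhibitor bound to matrix, by 0.78 ± 0.18.

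Basement membrane genes fell in 15 of 23, with a median of -1.0, and 1 rose. Col4a1 and Col4a2, the chains found in all basement membranes, read 7321, 8632 and 9919 at 7 days and 2693, 2748 and 3861 at 1 month and 6461, 7692 and 9319 at 7 days and 2582, 2846 and 3296 at 1 month, differences of -1.48 ± 0.17 and -1.41 ± 0.14. The chains of the mature glomerular basement membrane did not pass the test: Col4a3 was dim at both ages (0.15 ± 0.21) and Col4a4 read 81.5, 289 and 338 at 7 days and 367, 417 and 262 at 1 month (0.51 ± 0.32, adjusted p = 0.304). Among laminins, Lamb1 of the immature form differed by -1.02 ± 0.23 and Lamb2, which replaces it in the glomerulus, by -0.44 ± 0.23 with an adjusted p of 0.193. The differences between paired chains were not tested. Lama1 and Lama5 both fell (-1.39 ± 0.26 and -0.82 ± 0.19), and Lama3 rose by 1.19 ± 0.19 on a probe set of the shared kind.

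Markers of smooth muscle and pericytes fell in 15 of 21 with none higher. Acta2, smooth muscle actin, read 2529.7, 3216 and 4030.3 at 7 days and 442, 369 and 325 at 1 month, a difference of -2.96 ± 0.14 (adjusted p = 6.67e-11). Tagln, an actin-binding protein of the same cells, read 2079, 2380.1 and 2872 at 7 days and 683, 473 and 417 at 1 month, a difference of -2.09 ± 0.12. Pdgfrb, the receptor that defines pericytes, differed by -0.76 ± 0.16. Des, the muscle intermediate filament, read 38.5, 149.7 and 279.8 at 7 days and 256, 225 and 129 at 1 month and was not called. The summed level of the 21 genes, a list chosen with earlier results of these data known, was 20457 to 24595 at 7 days. At 1 month it was 7357 to 8486 (exact permutation p = 0.0119, the smallest possible).

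Endothelial genes fell in 16 of 25 with none higher and a median of -0.79, but without 1-month control 1 only 9 were called. Cdh5, the cadherin of endothelial junctions, read 975, 1245 and 1439 at 7 days and 403, 372 and 501 at 1 month, a difference of -1.48 ± 0.15 (adjusted p = 7.89e-07), and Tie1, Sox18 and Sox17 differed by -1.28 ± 0.23, -1.23 ± 0.12 and -1.10 ± 0.19. Eng, a coreceptor for transforming growth factor beta, differed by -0.67 ± 0.15. The receptors for vascular endothelial growth factor did not follow: Kdr read 185, 291 and 467 at 7 days and 226, 377 and 313 at 1 month (-0.20 ± 0.31) and Flt1 read 184, 235 and 368 at 7 days and 290.2, 309.7 and 351 at 1 month (0.35 ± 0.19), and Pecam1, a general endothelial marker, had a difference of 0.03 ± 0.29, none of them called. With arrays centred on their medians 11 were lower and 2 higher.

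Podocytes are the cells that wrap the glomerular capillaries and hold back plasma proteins. Of 15 measured markers 10 were lower and none higher, with a median of -1.18. The summed level was 23405 to 27056 at 7 days and 8409 to 9897 at 1 month (exact permutation p = 0.0119). The list was chosen with earlier results of these data known, and bright members weigh most in the sum. Tcf21, a transcription factor of podocytes and stroma, read 3355, 3583 and 3711 at 7 days and 417, 296 and 579.5 at 1 month, a difference of -3.02 ± 0.15 (adjusted p = 9.15e-11). Wt1, needed for the podocyte programme and for progenitors, read 255, 297 and 429.6 at 7 days and 129, 115 and 108 at 1 month, a difference of -1.24 ± 0.20. Synpo and Ptpro, proteins of the foot processes, differed by -0.87 ± 0.14 and -0.84 ± 0.15, and Dag1, the receptor that anchors cells to laminin, by -1.18 ± 0.12. Vegfa, which podocytes also make, read 248, 283 and 412 at 7 days and 236, 316 and 357 at 1 month and was not called (-0.07 ± 0.20). Several of the 10, among them Npnt, Efnb2, Nes and Tjp1, are expressed in other cells too.

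Genes of cytoskeleton and neurite-type growth fell in 20 of 32 with none higher. Tmsb10, an actin-sequestering peptide, read 7457, 10331 and 11937 at 7 days and 1416, 1353 and 1401 at 1 month, a difference of -2.83 ± 0.16 (adjusted p = 7.62e-10), and Marcks and Marcksl1, which link membrane to actin, differed by -2.75 ± 0.24 and -2.33 ± 0.17. Among adhesion and junction genes 16 of 32 fell and 2 rose. Cldn6, a claudin of immature epithelia, read 543, 632 and 942 at 7 days and 50.3, 61.3 and 69.9 at 1 month, a difference of -2.94 ± 0.19. Cldn11, a claudin counted here with the loop of Henle too, differed by -3.15 ± 0.20. The connexins went in both directions: Gja1 fell (-2.01 ± 0.19) and Gjb2 read 387, 651 and 689 at 7 days and 2447, 2986 and 2186 at 1 month and rose (2.01 ± 0.20, adjusted p = 5.77e-07), and so did Gjb1 (1.17 ± 0.25). Thy1, an anchored surface protein listed with lymphocytes but also made by stroma and neurons, read 397, 421 and 547 at 7 days and 36.5, 20.9 and 22.1 at 1 month, a difference of -3.18 ± 0.26, and was the 1 of 22 lymphocyte markers called.

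**Figure D3:**
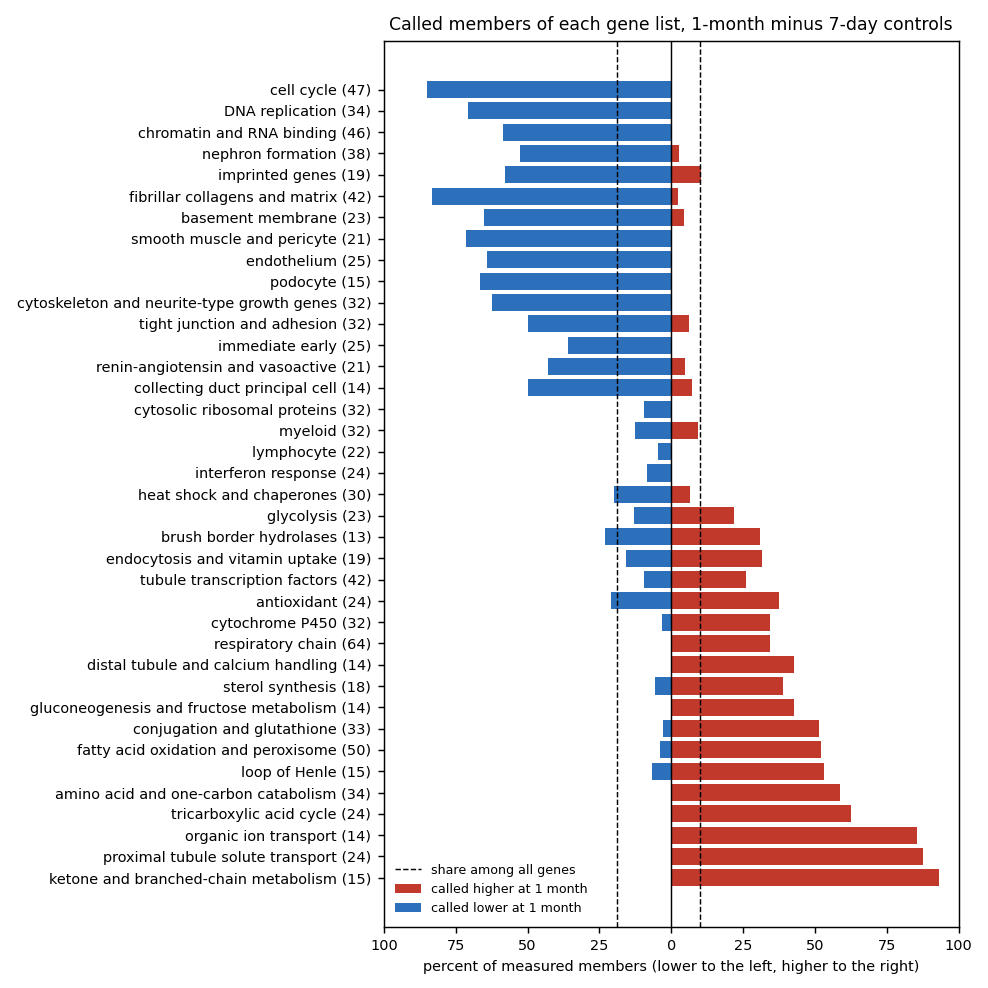
For each gene list (number of measured members in brackets), bars give the percent of members called lower at 1 month to the left in blue and called higher to the right in red, and dashed lines give the shares over all genes, 18.8% lower and 9.87% higher. The lists of cell division, matrix, vessel and podocyte genes extend to the left of the dashed line, and the lists of tubule transport and of mitochondrial and peroxisomal metabolism extend to the right.

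Solute transporters of the proximal tubule rose in 21 of 24, with a median of 0.84 and none lower. Slc34a1, which reclaims phosphate, read 6147, 8059 and 8585 at 7 days and 15438, 11925 and 14674 at 1 month, a difference of 0.87 ± 0.16 (adjusted p = 0.000594). Slc26a1, a sulfate and oxalate exchanger of the basolateral membrane, read 32.7, 164 and 219 at 7 days and 922, 978 and 476 at 1 month, a rise of 2.51 ± 0.41. Slc27a2, which takes up and activates fatty acids, read 2360.5, 2687 and 2964 at 7 days and 8916, 8997 and 11111 at 1 month, a rise of 1.82 ± 0.13 (adjusted p = 1.69e-08). The amino acid transporters Slc7a9 and Slc3a1, the 2 chains of the cystine carrier, rose by 1.00 ± 0.15 and 1.26 ± 0.17, and Slc7a7 and Slc6a18 by 1.11 ± 0.22 and 1.43 ± 0.16. For the sugars, Slc2a5, which carries fructose, rose by 1.36 ± 0.23, Slc5a1 by 0.62 ± 0.14 and the basolateral Slc2a2 by 0.68 ± 0.17. All of these rises but that of Slc26a1 were under 4-fold, and several were already bright at 7 days: Slc2a2 read 1619 to 2708 there and Pdzk1, the scaffold of apical transporters, 3946 to 5861. Without 1-month control 1 the count of called transporters fell to 9, and in male arrays only it was 11; the medians over the 24 were then 0.80 and 0.83. Slc34a2, the phosphate carrier of lung and gut, read 125, 191 and 375 at 7 days and 165, 169 and 129 at 1 month and was not called.

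Carriers and pumps of organic ions rose in 12 of 14 with a median of 1.39, and 10 were called without 1-month control 1. Slc22a6, the basolateral organic anion transporter OAT1, read 828, 1399.7 and 1778 at 7 days and 3307, 6955 and 5025 at 1 month, a rise of 1.74 ± 0.21 (adjusted p = 6.31e-06). Slc22a2, the cation transporter OCT2, read 863, 956 and 1389 at 7 days and 2558, 6347 and 4594 at 1 month, a rise of 1.83 ± 0.19. Slc22a12, the urate carrier URAT1, read 1781, 2268 and 2745 at 7 days and 6266, 9284 and 6515 at 1 month, a rise of 1.66 ± 0.17, and Slc22a4, a carnitine and ergothioneine carrier, rose from a dim level (11.2, 51.4 and 76.2 at 7 days and 244, 326 and 308 at 1 month) by 2.07 ± 0.26. The luminal pumps Abcc2 and Abcg2 rose by 1.83 ± 0.28 and 1.03 ± 0.21. Abcc3 read 53.0, 263 and 493 at 7 days and 621, 57.0 and 94.6 at 1 month, with the female high and both males low, and was not called.

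The promoter of Slc34a1 is shown as that of a proximal tubule gene with core letters of the site of HNF1, a factor that binds many proximal tubule genes. Its window held 2 matches, and those of Dnase1, Guca2b, Umod and Slc22a6, also searched, held at most 1. The full HNF1 site was in 0 of the 63 proximal tubule windows counted below and in 3 of all 32851 windows. The counts below are of letters, not of bound sites, and windows of 1 gene can overlap. Whether these shares differ from those of all windows was not tested. The promoter of Slc34a1 is printed here. It lies at chr13:55399398-55399647 on the plus strand (RefSeq, GRCm38.p6), and GTTAAT or its reverse complement ATTAAC is in capitals.
Slc34a1: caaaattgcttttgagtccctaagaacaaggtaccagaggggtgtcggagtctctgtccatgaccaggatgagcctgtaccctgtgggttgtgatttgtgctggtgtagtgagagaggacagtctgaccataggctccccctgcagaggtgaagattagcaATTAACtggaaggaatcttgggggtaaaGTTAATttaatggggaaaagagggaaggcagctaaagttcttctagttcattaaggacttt
Over 51 measured proximal tubule genes, 45 had a promoter in the table with 63 windows, and GTTAAT was in 6 of them (9.52%) against 7.1% of all windows. CAAAGTCCA, letters of the site of HNF4, was in 2 (3.17%) against 0.475%.

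Among brush border enzymes 4 of 13 rose and 3 fell: Alpl, alkaline phosphatase, read 711, 1137 and 1292 at 7 days and 4981, 2609 and 2655 at 1 month and rose by 1.70 ± 0.20, as did Acy3 above, while Dpp4, a dipeptidyl peptidase, and Mme, neprilysin, differed by -0.79 ± 0.22 and -0.85 ± 0.24. With arrays centred on their medians 6 rose and none fell. Without 1-month control 1, 4 rose and none fell. Of 19 genes for endocytosis and vitamin uptake 6 rose (3 without 1-month control 1) and 3 fell; Cubn, the receptor cubilin, and Folr1, the folate receptor, rose by 0.67 ± 0.14 and 0.85 ± 0.19. Lrp2, megalin, read 3726, 4782 and 5024 at 7 days and 6684, 4740.0 and 7579 at 1 month and was not called (0.47 ± 0.19, adjusted p = 0.0835). Rbp4, the plasma carrier of retinol, fell from a dim level (-1.67 ± 0.37).

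In the loop of Henle 8 of 15 genes rose and 1 fell. Umod, uromodulin, the main urinary protein of the thick limb, read 2290.2, 3108 and 3487 at 7 days and 7074, 6630.2 and 9834 at 1 month, a rise of 1.36 ± 0.17 (adjusted p = 1e-05). Slc12a1, the sodium-potassium-chloride cotransporter, read 3839.9, 4400.4 and 5166 at 7 days and 8004, 4569 and 8121 at 1 month, a rise of 0.61 ± 0.18 with overlapping arrays. Kcnj1, the channel that returns potassium to the lumen, rose by 0.89 ± 0.13, Ptger3, a prostaglandin receptor, by 1.59 ± 0.24 and Ppp1r1a, a phosphatase inhibitor, by 1.69 ± 0.16. Distal genes rose in 6 of 14 with none lower. Slc12a3, the thiazide-sensitive cotransporter, read 1106, 1450.3 and 2026 at 7 days and 3130.2, 2187 and 2260.2 at 1 month, a rise of 0.83 ± 0.18. Calb1, the calcium buffer of the distal tubule, rose by 1.06 ± 0.20. Klk1, tissue kallikrein, rose by 2.57 ± 0.28 on a probe set of the shared kind. Vdr, the vitamin D receptor, read 207, 211 and 336 at 7 days and 460.1, 641 and 918 at 1 month and rose by 1.29 ± 0.21, and Cyp24a1, which degrades the active hormone, by 1.52 ± 0.25.

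Of 14 collecting duct genes 7 fell and 1 rose, with a median of -0.42. Their summed level was 19891 to 26640 at 7 days and 16847 to 26958 at 1 month (exact permutation p = 0.738). Aqp2, the water channel under the control of vasopressin, read 2165, 3105 and 5434 at 7 days and 7449, 3221 and 4623 at 1 month and rose by 0.74 ± 0.21 (adjusted p = 0.0164) with overlapping arrays, the female reading above both males. The vasopressin receptor Avpr2 read 239, 263 and 373 at 7 days and 496, 328 and 366 at 1 month and was not called. The 7 that fell included the keratins Krt19 (-1.68 ± 0.18) and Krt18 (-1.67 ± 0.27), the prostaglandin receptor Ptger4 (-1.65 ± 0.24) and the factor Gata3 (-0.75 ± 0.19). That count was 4 without 1-month control 1 and 4 without 1-month control 3, and after median centring 3 fell and 2 rose. Only 7 intercalated cell genes were measured, of which Car2 and Car4, carbonic anhydrases, rose by 0.58 ± 0.12 and 1.25 ± 0.20, and Tfcp2l1 fell (-0.55 ± 0.13). Slc6a6, the taurine transporter that counters high osmolality, rose by 0.88 ± 0.18, whereas the betaine carrier Slc6a12 read 66.6, 91.7 and 142 at 7 days and 186, 73.7 and 103 at 1 month and was not called.

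Vasoactive genes fell in 9 of 21 and rose in 1. Agtr2, the angiotensin receptor of developing kidney, read 55.4, 85.9 and 138 at 7 days and 1.39, 4.71 and 6.71 at 1 month, a difference of -1.84 ± 0.22. Ednrb, an endothelin receptor, differed by -1.44 ± 0.21. Hdc was among the 9, a count that was 3 without 1-month control 1, 4 without 1-month control 3 and 5 without the arrays labelled 7-day control 1 and 2. After median centring 3 fell and 3 rose and the median turned from -0.12 to 0.10. Ace read 558, 687 and 710.2 at 7 days and 355, 661 and 472 at 1 month (-0.47 ± 0.14) and Agt read 557, 975 and 1355 at 7 days and 1697, 1041 and 1036 at 1 month, the latter not called. Ren1, which encodes renin, has no probe set with 1 symbol here.

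**Figure D4:**
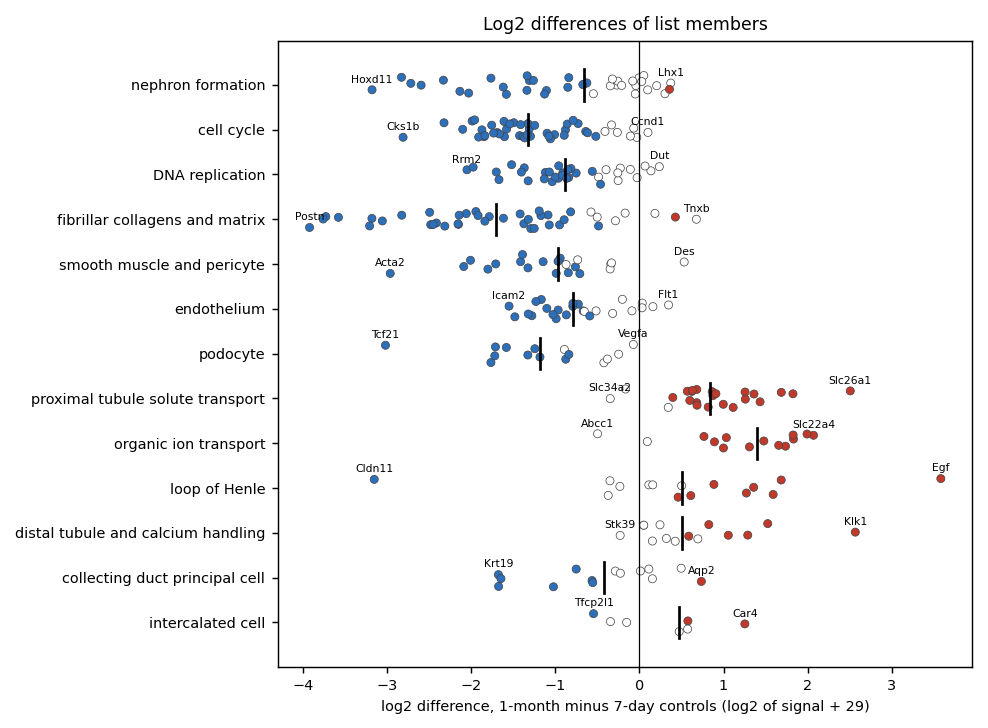
Each point is 1 measured gene of a list at its log2 difference between 1-month and 7-day controls (horizontal, log2 of signal + 29), filled blue if called lower, red if called higher and white if not called, with a black bar at the median of the list and the end members named. In each list at most 1 called member lies on the other side of 0 from the rest, and Cldn11 (-3.15) and Egf (3.58) stand far out in the loop list.

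In the breakdown of ketone bodies and branched-chain amino acids 14 of 15 genes rose, the largest share called higher in any list, with a median of 1.04. Oxct1, which activates ketone bodies for oxidation, read 2113, 2707 and 3154 at 7 days and 7471, 7084 and 6333 at 1 month, a rise of 1.42 ± 0.16 (adjusted p = 2.13e-06), and Ivd and Bckdha, of leucine and general branched-chain breakdown, rose by 1.63 ± 0.18 and 1.34 ± 0.18. Bcat1 and Bcat2, the cytosolic and mitochondrial aminotransferases that start the pathway, rose by 2.29 ± 0.38 and 0.79 ± 0.19. Of 34 genes for amino acid and one-carbon breakdown 20 rose and none fell. Dmgdh and Sardh, which demethylate dimethylglycine and sarcosine, rose by 2.65 ± 0.20 and 1.19 ± 0.19. Gnmt, which methylates glycine, read 51.1, 88.3 and 111 at 7 days and 665, 718 and 589.8 at 1 month. Gldc of the glycine cleavage system read 29.4, 63.8 and 124 at 7 days and 527, 746 and 638 at 1 month. Hgd and Fah of tyrosine breakdown rose by 2.13 ± 0.15 and 1.59 ± 0.16, and Ddc, which makes dopamine in the proximal tubule, by 2.42 ± 0.26. Without 1-month control 1, 13 of the 34 were called.

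Genes of fatty acid oxidation and peroxisomes rose in 26 of 50 and fell in 2, with a median of 0.55; 17 rose without 1-month control 1. Acadm, the medium-chain dehydrogenase, read 3107, 3875 and 4563 at 7 days and 7491, 8296 and 14273 at 1 month, a rise of 1.25 ± 0.16 (adjusted p = 1.3e-05). Peroxisomal enzymes were among the largest rises: Ehhadh, the bifunctional enzyme, read 147, 226 and 274 at 7 days and 558, 1159 and 1289 at 1 month. Phyh, which starts the breakdown of phytanic acid, read 1742, 2168 and 2451 at 7 days and 5799.5, 9319 and 8315 at 1 month. Hao2, a hydroxy acid oxidase, read 936, 1534 and 2191 at 7 days and 7045, 4431 and 4984 at 1 month. Cat, catalase, rose by 1.43 ± 0.15. Acsm2, a medium-chain acyl-CoA synthetase, read 1736, 2597 and 3131 at 7 days and 13209.9, 16450.2 and 16842 at 1 month, a rise of 2.62 ± 0.22 with the 3 older arrays far above the younger ones. Cpt1a, the gate of mitochondrial fatty acid entry, read 4583, 5092 and 6384 at 7 days and 5569, 5687 and 5799 at 1 month and was not called (0.13 ± 0.11, adjusted p = 0.463), nor was Cpt2 (0.29 ± 0.13). The 2 that fell were Acot1, a thioesterase (-0.36 ± 0.09), and Pmp22 (-1.45 ± 0.09), a myelin and junction protein whose name resembles that of a peroxisomal one.

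In the tricarboxylic acid cycle 15 of 24 genes rose with none lower and a median of 0.55, and 9 were called without 1-month control 1. Sdha, the catalytic subunit of succinate dehydrogenase, read 528, 602 and 728 at 7 days and 1248, 1354 and 1946 at 1 month, a rise of 1.20 ± 0.14. Suclg1 rose by 0.93 ± 0.15. Cs, citrate synthase, read 2905, 3039 and 3321 at 7 days and 3156, 3172 and 3809 at 1 month and was not called (0.10 ± 0.12). In the respiratory chain 22 of 64 subunits were called higher and none lower, with a median of 0.39. Cox6a2, a subunit best known from heart and muscle, read 35.5, 48.3 and 133 at 7 days and 467, 372 and 489 at 1 month, a rise of 2.51 ± 0.38. Cycs, cytochrome c, read 309.7, 478 and 721 at 7 days and 899, 1786 and 2348 at 1 month, a rise of 1.47 ± 0.23. This count depended on single arrays and on scaling: it was 5 without 1-month control 1, 10 without 1-month control 3, 14 with quantile normalization and 43 after median centring. Of nuclear factors of this metabolism, Esrra rose by 0.87 ± 0.15, and the coactivator Ppargc1a was dim and not called (0.29 ± 0.23). Ppara was called at 0.73 ± 0.26, but it lost that call under 13 of 24 alternatives, including the random replicate block for litters.

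Of 14 genes for gluconeogenesis and fructose use 6 rose (3 without 1-month control 1) and none fell: Pck1, the rate-limiting enzyme of gluconeogenesis, read 1415, 1540.0 and 2138 at 7 days and 3095, 3285 and 4392 at 1 month, a rise of 1.10 ± 0.16 (adjusted p = 5.6e-05), Gpd1 rose by 1.49 ± 0.25, and G6pc and Fbp1, at 3669, 6889.9 and 7889 at 7 days and 6321, 5685 and 8504 at 1 month and 8082, 13003 and 15786 at 7 days and 17410.1, 15052 and 20551 at 1 month, were not called. Of 23 glycolytic genes 5 rose and 3 fell with a median of -0.02, which after median centring became 10, 2 and 0.20. Hk1, the housekeeping hexokinase, differed by -0.97 ± 0.29, Ldhb rose by 0.76 ± 0.12 and Pkm read 3363, 5588 and 6661 at 7 days and 7492, 3528 and 3833 at 1 month and was not called. The 5 rises became 2 without 1-month control 1, and 3 without 1-month control 3, without 7-day control 3 or without 7-day controls 1 and 2.

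Of 32 cytochrome P450 and related genes 11 rose and 1 fell, with a median of 0.40; beside Cyp2e1 and Cyp4b1, Cyp2j5, an epoxygenase of arachidonic acid, read 34.3, 47.5 and 70.5 at 7 days and 176, 266 and 325 at 1 month. Fmo5, a flavin monooxygenase, read 9.20, 37.4 and 80.0 at 7 days and 96.8, 1045 and 539.7 at 1 month with both males above the female. Cyp1b1 was the 1 that fell (-0.68 ± 0.17). In conjugation and glutathione 17 of 33 rose and 1 fell. Ephx2, soluble epoxide hydrolase, read 194, 254 and 312 at 7 days and 1087, 2572 and 2076 at 1 month, a rise of 2.60 ± 0.20 (adjusted p = 3.61e-08), Sult1d1, a sulfotransferase, rose by 2.30 ± 0.16, and the glutathione transferases Gstt1 and Gstk1 by 1.60 ± 0.13 and 1.61 ± 0.14. Antioxidant genes went both ways, 9 higher and 5 lower of 24: Gpx4, Sod1 and Msrb1, a methionine sulfoxide reductase, rose by 1.09 ± 0.16, 1.04 ± 0.16 and 1.99 ± 0.13, while the metallothioneins Mt1 and Mt2, which bind zinc and copper, read 7119, 11459.7 and 12121 at 7 days and 2822, 2010.0 and 2955 at 1 month and 6629.7, 11218 and 15566 at 7 days and 2001, 2543 and 1993 at 1 month. Both metallothioneins fell (-1.98 ± 0.23 and -2.32 ± 0.22), and Hmox1, heme oxygenase, fell by about 2-fold (-1.01 ± 0.19).

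Of 42 tubule transcription factors and nuclear receptors 11 rose and 4 fell, with a median of 0.09 and 5 rises without 1-month control 1. Hnf4a, a factor of the proximal tubule, read 180.3, 616 and 735 at 7 days and 1408, 1349.7 and 911 at 1 month, a rise of 1.38 ± 0.36 (adjusted p = 0.00858), with 7-day controls 3 and 4 at 180 and 265 and the other 4 at 589 to 735. Nr1h4, the bile acid receptor FXR, rose by 1.24 ± 0.22, and Cebpa by 1.00 ± 0.25. Genes of the circadian clock and its output were among the largest changes in this list: Dbp read 67.9, 112 and 149.9 at 7 days and 566, 738 and 414 at 1 month and rose by 2.01 ± 0.34. Nr1d1 rose by 1.72 ± 0.24 and Tef by 1.17 ± 0.30. Cry1 read 587, 651 and 851 at 7 days and 206, 120.4 and 155 at 1 month and differed by -1.84 ± 0.13. Clock and Arntl, also of the clock, were not called (-0.02 ± 0.21 and -0.45 ± 0.18), although the older arrays of Arntl lay wholly below the younger ones. The time of day of tissue collection is not given in the sources used here, so its part in these values was not tested.

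Of 32 myeloid markers 3 rose and 4 fell (1 and 1 without 1-month control 1, and 3 and 2 after median centring), and their summed level was 5713 to 9810 at 7 days and 5514 to 6990 at 1 month (exact permutation p = 0.5). Csf1r, the receptor of macrophage growth factor, read 499, 582 and 613 at 7 days and 682, 1019.7 and 850.2 at 1 month and rose by 0.48 ± 0.14, while Mrc1, the mannose receptor of resident macrophages, fell from a dim level (-1.06 ± 0.29). In 24 interferon genes 2 fell and none rose, but 2 fell and 3 rose without 7-day control 3, in which Iigp1 of this list read 4594, and the median turned from -0.15 to 0.06. Without 1-month control 1 none was called in either direction, and after median centring 1 rose and none fell. Of the 14 liver markers 6 rose, among them Ttr and Serpina1b, at 204, 307 and 370.3 at 7 days and 382, 543 and 781 at 1 month and 123, 176 and 293 at 7 days and 527, 419 and 374 at 1 month, and 3 without 1-month control 1; their summed level was 845 to 1343 at 7 days and 1641 to 2162 at 1 month (exact permutation p = 0.0119). The other 8 liver markers were not called, and 10 of the 14 had mean signals under 118.6 at both ages. Ttr and Serpina1b were thus among the brighter members. Whether liver marker transcripts came from the kidney or from another tissue was not tested.

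Some postnatal changes differed between the sexes. Over all genes, 78 of 8251 (0.945%) had a postnatal change that differed between males and females (limma contrast over all 18 arrays, added after the data were seen), 53 with the male minus the female change above 0 and 25 with it below 0, whichever sex changed more in size; 52 of the 78 were also called for age. In 51 of the 53 all 4 males of 1 month, control and Aprt KO, read above both females, and in 24 of the 25 all 4 read below both, which describes the arrays the contrast used. The 2 females of 1 month were littermates and the 4 males came from the other litters of that age, so at 1 month sex and litter cannot be told apart. Every litter pair of the series was of 1 sex, and the contrast took the 18 arrays as independent. With the litter pair as a random replicate block the correlation within pairs was 0.44, so the p-values of this contrast can be too small. The largest, named after their values were seen, were Slc22a30, an organic anion transporter family member, at 65.0, 3716 and 3630.1 in the 1-month controls, and Pzp, a protease inhibitor of the macroglobulin family, at 11.7, 1311 and 1053, the female first. The Aprt KO kidneys of 1 month read 115, 2321 and 1307 and 46.9, 1050.4 and 235 in the same order. Akr1c21 read 401, 4338 and 5237 in controls and 870.0, 4308 and 2746 in Aprt KO, so that the females were far below the males in both. In fits of 1 sex, Inmt rose by 6.54 in males and 3.35 in females, Cyp2e1 by 5.77 and 4.14, and Cyp4b1 by 4.97 and 3.11 (differences of 2.74, 1.93 and 1.98 over both genotypes). Cd36, the fatty acid uptake receptor, read 51.6, 509 and 486 at 1 month against 41.8 to 72.7 over the 7-day arrays, so that the males alone stood above the younger kidneys. Acsm3 and Ghr also rose more in males (differences of 2.39 and 1.51).

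In other genes the female of 1 month read above the males. Aqp2 read 7449, 3221 and 4623 in controls and 7730.3, 3964 and 5028 in Aprt KO at 1 month, a difference between the sexes in postnatal change of -1.46 (adjusted p = 0.0318). Slc6a18, an amino acid transporter of the late proximal tubule, read 3549.8, 2216 and 1879 and 3219.9, 1743 and 2016, and Ppp1r1a 1231, 512 and 669.7 and 1359.9, 736 and 591. By contrast, the collagen Col3a1 (340, 503 and 816 in 1-month controls, the female first) and Postn (55, 109 and 176) read lower in the female than in both males. These 2 fell more in the female kidneys, with male minus female changes of 0.89 and 1.07. Among 16 genes known to respond to androgens or to differ between the sexes in rodent kidney 8 rose and 2 fell; Kap, the kidney androgen-regulated protein, read 7687, 17567 and 24335 at 7 days and 31240.5, 18512 and 22953 at 1 month and was not called (0.65 ± 0.34). The 1-month side of these values rests on 1 female control and 1 Aprt KO female of the same litter.

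**Figure D5:**
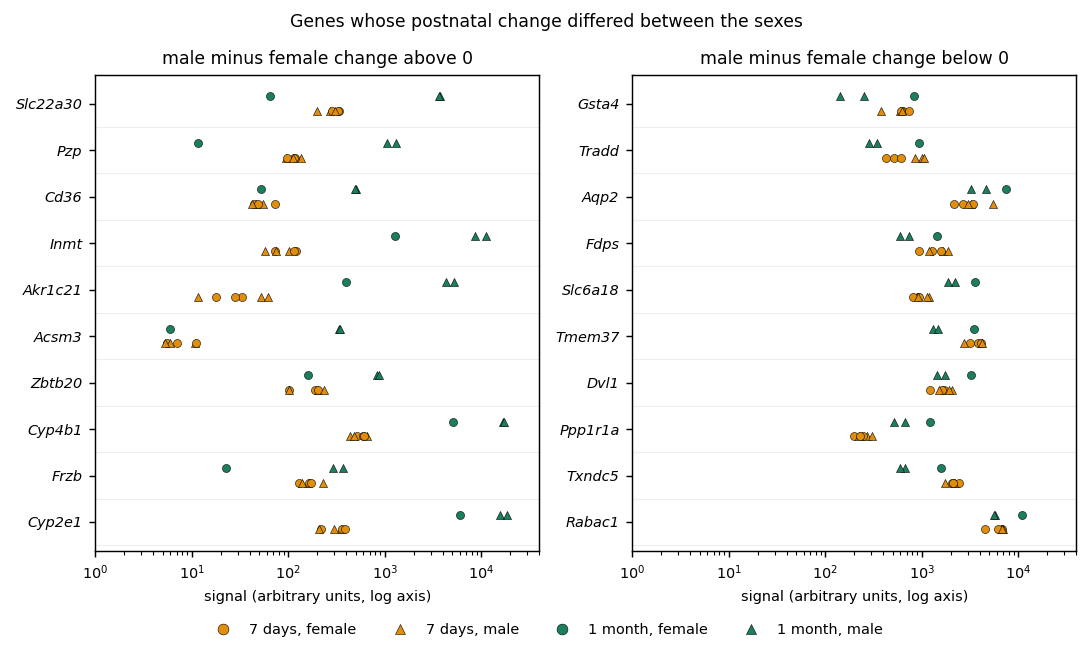
Signal (arbitrary units, log axis) in each of the 9 control arrays of the 10 genes with the highest male minus female postnatal log2 change (left) and of the 10 with the lowest among genes with a mean 1-month signal over 400 (right), all of the 78, with circles for females, triangles for males, orange for 7 days and green for 1 month. In the left panel the 1-month circle lies below both 1-month triangles, and in the right panel it lies above them.

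The postnatal change itself differed between controls and Aprt KO in 28 genes (0.339%), 10 of which were called for age in controls. The count was 12 without 1-month control 1, 18 without 1-month control 3 and 18 without the arrays labelled 7-day control 1 and 2, whose Aprt signal read like that of the Aprt KO arrays. It was 8 with the 7-day arrays titled M, 1 with those titled OA, 0 in females alone by limma, 1 in males alone, and 74 with the litter pair as a random replicate block. Besides Cdkn1c, Tcf21 fell by more in controls (-3.02 against -1.95), as did the matrix proteoglycans Lum (-2.14 against -1.03) and Dcn (-1.32 against -0.28). Lcn2, a secreted protein of injured tubules, read 196, 268 and 414 at 7 days and 51.0, 56.8 and 71.2 at 1 month in controls, a difference of -1.88 ± 0.21, and its change in Aprt KO was -3.73. Sprr2f, a small proline-rich protein of stressed epithelium, had a change of -0.24 in controls, not called, and of -5.61 in Aprt KO.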

How the data were processed

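Whole-kidney RNA of 18 mice was hybridised, 1 mouse per array, to an Affymetrix mouse array; per the labels' protocols the RNA was extracted with Qiagen columns and turned into biotin-labelled cRNA with an Enzo kit. The authors deposited 1 intensity (signal) per probe set on a linear scale, made with GCOS and the MAS5 algorithm per the submitters' processing notes, of unstated version; the array means are near a common target, so global scaling had been applied. MAS5 signals have no counting depth, and precision rests on the number of arrays.

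Gene names came from GEO's platform annotation of this array, and 10817 of the 10833 single-symbol probe sets matched a symbol of the RefSeq table for GRCm38.p6. Left out were 396 probe sets with several symbols, 1193 with none and 66 controls. Each gene was read by its brightest probe set; 23 genes named in the text have a probe set with a suffix that marks shared probes, namely Acsm3, Bmp4, Ces1d, Cry1, Cubn, Cyp4b1, Ghr, Gja1, Grb10, Igf2, Igfbp1, Klk1, Klk1b1, Lama3, Lamb1, Mcm3, Nnat, Penk, Pkm, Serpina1b, Slc22a30, Sox18 and Sprr2f. Called genes with several probe sets numbered 628, and in 489 of them all probe sets had the same sign. In 4 called genes another probe set was called in the opposite direction. Other probe sets are described for some genes only. For Cyp24a1, Agtr2 and Cubn 1 of 2 probe sets had the sign given, and for Cry1 2 of 3. A second Timp1 probe set was dim and not called. A pseudocount of 29, close to the 20th percentile of the signals, was added before log2, and a fold on that scale understates the change of dim genes. A linear model was fitted with limma 3.58.1 (R 4.3.3), using eBayes moderation and a trend on intensity, over all 18 arrays, with 1 mean per group of age and genotype and 1 sex term per age, so that a difference lies midway between the sexes. P-values were adjusted by Benjamini-Hochberg over the 10833 probe sets, and called, rose and fell mean an adjusted p under 0.05; the test was tried on simulated data. Summed levels were compared by exact two-sided permutation of arrays. Their p-values are descriptive, because the gene lists were chosen with earlier results of these data known. Figures were drawn with matplotlib 3.10.9 from tables made in Python 3.11.15.

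The comparison, the gene lists and the rule for naming genes were chosen with earlier results of these data known. The rule took a set of key genes, the 12 largest rises and falls whose arrays did not overlap, the called members with the largest changes in each list, and paralog pairs. Of 257 genes named in the text, 83 fell outside it and were named after their values were seen.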

Additional observations from a re-analysis of the deposited data

Results flagged for a closer look

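In 20 of the 257 named genes the highest or lowest of the 6 control arrays of 7 days lay far from the other 5; chance sets such a mark on about 1 in 20 groups, and 9 of the 20 were at 7-day control 3. In that array Iigp1, an interferon-induced GTPase, read 4594 (19.9 to 59.4 in the other 5), Cox6a2 133 (35.5 to 49.7) and Sult1d1 759 (499.7 to 564), all high. The same array was low for Alpl at 711 (1085 to 1292), Cebpa at 813 (1301 to 1683), Col4a4 at 81.5 (225 to 338), Gjb2 at 387 (589 to 689), Mcm5 at 1100.0 (1676 to 2090.3) and Pdgfrb at 216 (351 to 390.1). The array of 7-day control 4 was low for Car2 at 4374 (5151 to 5514), Gatm at 5916 (8042 to 8829) and Slc34a1 at 6147 (7946 to 8585), and high for Synpo at 775 (503 to 565) and Vdr at 336 (207 to 239). The array of 7-day control 1 was high for Aurkb at 580.2 (324 to 382) and low for Nr1h4 at 299 (433 to 473) and Slc22a4 at 11.2 (46.9 to 76.2). Control 5 of that age was low for Igf2r at 706 (756 to 786) and high for Pck1 at 2138 (1415 to 1641), and control 6 was high for Thy1 at 547 (397 to 441).

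The postnatal log2 change differed between the sexes in 14 named genes by the limma contrast over all 18 arrays. The male change minus the female change was 4.70 for Slc22a30 (adjusted p = 4.33e-06), 3.67 for Pzp (0.00377), 2.78 for Cd36 (0.00331), 2.74 for Inmt (0.00373), 2.72 for Akr1c21 (0.00683), 2.39 for Acsm3 (0.00373), 1.98 for Cyp4b1 (5.19e-05), 1.93 for Cyp2e1 (0.00437) and 1.51 for Ghr (0.00373). For Postn and Col3a1, which fell more in females, it was 1.07 (0.034) and 0.89 (0.0466). The change was larger in females for Aqp2 at -1.46 (0.0318), Slc6a18 at -1.14 (0.0254) and Ppp1r1a at -1.07 (0.034). The 1-month arrays behind these values were 2 females of 1 litter and 4 males of other litters. The contrast took littermates as independent, so its p-values can be too small.

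The postnatal change differed between controls and Aprt KO in 6 named genes. The control change minus the Aprt KO change was 5.37 for Sprr2f (limma adjusted p = 1.2e-05), 1.85 for Lcn2 (0.00643), -1.30 for Cdkn1c (0.00463), -1.11 for Lum (0.0185), -1.07 for Tcf21 (0.0271) and -1.04 for Dcn (0.0185). Sprr2f and Lcn2 fell more in Aprt KO kidneys and the other 4 fell more in controls.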

How the results depend on the processing

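Of 218 called genes named in the text, 129 kept their call and direction under all 24 alternatives and 181 under each of the 9 that left out 1 control array; of 5222 values, 4997 kept both, 222 lost the call and 3 changed sign. The cause of the changes below was not tested, except that subsets hold fewer arrays. Without 1-month control 1, the sex term of that age also rests on Aprt KO arrays alone. Against 814 genes higher and 1554 lower, the counts were 503 and 856 with the 7-day arrays titled OA alone, 283 and 559 in females alone (1 control at 1 month, its spread taken from the other arrays), 526 and 941 in males alone, and 1447 and 931 after median centring; without each control array in turn they ran from 437 to 809 and from 870 to 1519, lowest without 1-month control 1. The share of called genes that were higher, 34.4%, was 60.8% after median centring and 44.7% after quantile normalization. Of probe sets, 1543 were called with the OA arrays, 947 in females, 1684 in males and 1476 to 2664 with 1 control left out. Non-overlapping genes numbered 1229 higher and 2336 lower with the OA arrays, 1992 and 3434 in females, 1373 and 2205 in males, and 1329 and 789 after median centring. The 28 genes whose change differed between genotypes became 8 with the arrays titled M, 1 with those titled OA, 0 by limma in females, 1 in males, 74 with the litter pair as a random replicate block, 12 to 31 with 1 control left out (12 without 1-month control 1 and 18 without 1-month control 3) and 18 without the arrays labelled 7-day control 1 and 2. For age, the block gave 799 higher and 1471 lower, and the 9 control arrays alone gave 611 and 1153. The litters pair controls with Aprt KO mice of 1 age, so a fixed block could not be fitted to the age difference.

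With the 7-day arrays titled M alone, the log2 difference had the other sign for Abcc3 (-0.16) and Iigp1 (-0.59). In male arrays alone, the log2 difference had the other sign for Abcc3 (-1.67), Aprt (-0.066), Clock (0.54), Kdr (0.31), Mcm6 (-0.034), Pax2 (-0.31), Ret (-0.027), Slc6a12 (-0.040), Sprr2f (0.36) and Vegfa (0.072). Without the sex term, the log2 difference had the other sign for Abcc3 (-0.27), Aprt (-0.017) and Clock (0.057). In female arrays alone, the log2 difference had the other sign for Acsm3 (-0.074), Cd36 (-0.046), Iigp1 (-1.06), Pecam1 (-0.42), Pkm (0.67), Pzp (-1.77), Six2 (0.059) and Slc22a30 (-1.87). With the 7-day arrays titled OA alone, the log2 difference had the other sign for Aprt (-0.31), G6pc (-0.078), Kdr (0.11), Mcm6 (-0.029), Pecam1 (-0.17), Slc34a2 (0.070) and Vegfa (0.041). With the 9 control arrays alone, the log2 difference had the other sign for Aprt (-0.011), Pecam1 (-0.012) and Pkm (0.013). With a pseudocount of 112, the log2 difference had the other sign for Aprt (-0.0060) and Iigp1 (-0.28). Without 7-day controls 1 and 2, the log2 difference had the other sign for Aprt (-0.30), Iigp1 (-0.49), Mcm6 (-0.0017), Pecam1 (-0.26) and Pkm (0.13). Under median centring, the log2 difference had the other sign for Clock (0.20), Kdr (0.019), Pkm (0.20) and Vegfa (0.15). Under quantile normalization, the log2 difference had the other sign for Clock (0.20), Cpt1a (-0.089), Cs (-0.079) and Vegfa (0.14). With the mean over the probe sets of a gene, the log2 difference had the other sign for Igf1 (-0.34) and Iigp1 (-0.22). With 1 control array left out in turn, the log2 difference of genes whose sign turned ran from -0.29 to 0.42 for Abcc3, -0.12 to 0.20 for Aprt, -0.12 to 0.079 for Clock, -0.41 to 1.05 for Iigp1, -0.32 to 0.38 for Mcm6, -0.13 to 0.26 for Pecam1, -0.18 to 0.085 for Pkm, -0.75 to 0.15 for Sprr2f and -0.13 to 0.038 for Vegfa.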

Other observations

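Lipid synthesis, iron and immediate early genes were also measured. Of 18 sterol and fatty acid synthesis genes 7 rose and 1 fell, with 4 rises without 1-month control 1. Beside Scd1, the risers included Lpl, lipoprotein lipase, which read 652, 850 and 1136 at 7 days and 2167, 3976 and 4243 at 1 month (1.80 ± 0.22), and Cyp51, a sterol demethylase, which read 148, 174 and 205 at 7 days and 509, 586 and 834 at 1 month (1.61 ± 0.16, limma adjusted p = 8.3e-07). Lpl, a lipase, is also 1 of 12 measured fat markers, of which 2 rose and none fell. Their summed level was 3148 to 8423 at 7 days and 7441 to 9420 at 1 month (exact permutation p = 0.0952). Whether the Lpl signal came from kidney or from fat was not tested. Idi1, of the isoprenoid steps, rose by 1.03 ± 0.23. Among 22 iron and heme genes 5 rose and 2 fell, and none of the rises was called without 1-month control 1, 3 were without 7-day control 4, and 9 after median centring. Heph, the iron oxidase hephaestin, read 298, 459 and 644 at 7 days and 72.5, 52.6 and 113 at 1 month (-2.23 ± 0.26), and Hmox1 was the other that fell.

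Of 25 immediate early genes 9 fell and none was called higher by limma, although 2 were higher at an unadjusted p under 0.05. Myc, a transcription factor of growth, read 100.05, 117 and 189 at 7 days and 27.8, 55.8 and 51.0 at 1 month (-1.18 ± 0.23). After median centring 4 fell and 3 rose, and 5 fell without 1-month control 3. One 7-day kidney stood apart in interferon-induced genes: Iigp1 read 4594 in 7-day control 3 against 19.9 to 59.4 in the other 5.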
